A study of Mus musculus with 48 samples.

Results

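The comparison described here is that of Tph2-/- mice with Tph2+/+ mice among undisturbed controls (C), measured as DNA methylation in the amygdala. It rests on 16 of the 48 libraries of the series, the 8 labelled Tph2-/- C and the 8 labelled Tph2+/+ C, all from male C57BL/6 mice of 4 months whose parents had been backcrossed to C57BL/6N. Tissue came from 8 animals in each group. Tph2-/- mice carry a constitutive null allele of Tph2 on both chromosomes and Tph2+/+ mice carry none, and both came from Tph2+/- parents. C mice stayed with the dam, whereas maternally separated (MS) mice were taken from her daily for 3 h between postnatal days 2 and 15, and mice of either condition went through behavioral tests before tissue was taken. Tph2+/- C mice (8 libraries), Tph2+/+ MS mice (8 libraries) and Tph2-/- MS mice (8 libraries, 6 of them used) are brought in beside loci named in C and for a test of the genotype difference between MS and C, and Tph2+/- MS mice (8 libraries) are shown only in a plot of library sums and enter the scaling and a fit of 46 libraries. A constitutive null allele is passed on together with the stretch of chromosome 10 around it, so the genotype at Tph2 and the genotype at its neighbors cannot be told apart in this design.

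TPH2 is the enzyme that sets the rate of serotonin synthesis in neurons. Its gene is active in serotonergic neurons of the raphe nuclei in the brainstem, whose axons reach the amygdala, so cells of the amygdala meet serotonin as a signal and do not make it. Methylation of cytosines in CpG dinucleotides is the main DNA methylation of mammalian tissue, and a methyl-CpG-binding domain (MBD) pulls down fragments in proportion to the methylated CpGs they hold. Counts of captured fragments therefore depend on methylation, on CpG density and on how many copies of the sequence the animal has, and these cannot be told apart in a count.

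The table held 187695 loci, which are merged peaks of captured DNA with a median width of 916 bp. Library totals were 11.1 ± 1.11 Mcounts in Tph2-/- C and 11.3 ± 0.824 Mcounts in Tph2+/+ C (SD, n = 8 each), and the difference of -0.203 Mcounts had an exact permutation p of 0.689. At each locus the log2 CPM of a library was taken as its deviation from the mean over the 16 libraries. The slope of these deviations on CpG density shows how stringent the capture was relative to the other libraries. It averaged 0.0108 ± 0.0356 and -0.0108 ± 0.0398 per SD of CpG density (SD, n = 8 each, exact permutation p of 0.276). The opposite signs of the 2 means follow from the centering. None of 21 chromosomes and none of 5 annotation classes took a different share of the counts, with a smallest adjusted p of 0.854 and 0.706 by exact permutation tests. By the sample numbers of the labels, S1 to S17 held 5 Tph2-/- C and 6 Tph2+/+ C libraries, and S42 to S48 held 3 and 2. A few libraries stood apart at the loci described below. Summed over an inverted repeat, Tph2+/+ C replicate 2 and Tph2-/- MS replicate 5 lay inside the range of the Tph2+/- C libraries. Tph2-/- MS replicate 2 lay between that range and most libraries of its label, and Tph2-/- MS replicate 3 lay above the range. In comparisons of 2 groups, counts of loci at an adjusted p under 0.05 are given with and without these libraries. Other counts, such as those of loci without overlap and of genes that passed, are not all given both ways.

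At Tph2 itself no difference was found. The gene lies on the minus strand of chromosome 10 at chr10:115078641-115185022 of GRCm38, and 15 loci overlapped it, 10 of them in introns and 5 over coding exons. Summed over these loci, Tph2-/- C libraries ranged from 33.3 to 43.3 counts per Mcount after TMM normalisation (CPM) with a median of 39.1, and Tph2+/+ C libraries from 36.99 to 45.2 with a median of 38.6. The ranges overlapped widely, and the difference of means was -0.567 CPM with an exact permutation p of 0.723. Log2 fold changes of the 15 loci ran from -0.60 to 0.35, 8 higher and 7 lower, and 0 passed an adjusted p under 0.05. The smallest unadjusted p in edgeR, 0.0181, belonged to the locus at chr10:115161977-115162692 in an intron (log2 fold change -0.57 ± 0.24 SE, adjusted p 1.0). The locus of the gene nearest to its start ended 1963 bp from it. The sources used here do not give the part of the gene that the null allele lacks, so counts at these loci do not check the genotype labels.

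Among all loci, 21 had a Benjamini-Hochberg adjusted p under 0.05 in edgeR's quasi-likelihood test, which is 0.0112% of all loci tested. All 21 were lower in Tph2-/- C mice, and all 21 lay on chromosome 10 between 117489588 and 118349742, at 2.30 to 3.16 Mb from Tph2. Errors given with log2 fold changes are standard errors (SE). The 21 log2 fold changes ran from -3.81 to -0.61 with a median of -1.12, against a median of 0.00 over all loci. The 8 libraries of each genotype did not overlap in CPM at 14 of the 21 loci, where 0.0133% of all loci had every Tph2-/- C library under every Tph2+/+ C library. At the limits used by the study, a log2 fold change beyond 0.2 at an unadjusted p under 0.01, there were 1213 loci (0.646%), 547 of them higher and 666 lower, and 7233 loci (3.85%) had an unadjusted p under 0.05. Evenly spread p-values would put 1877 loci under 0.01. The split at these limits moved to 336 higher of 1258 when libraries were scaled by their totals alone.

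**Figure D1:**
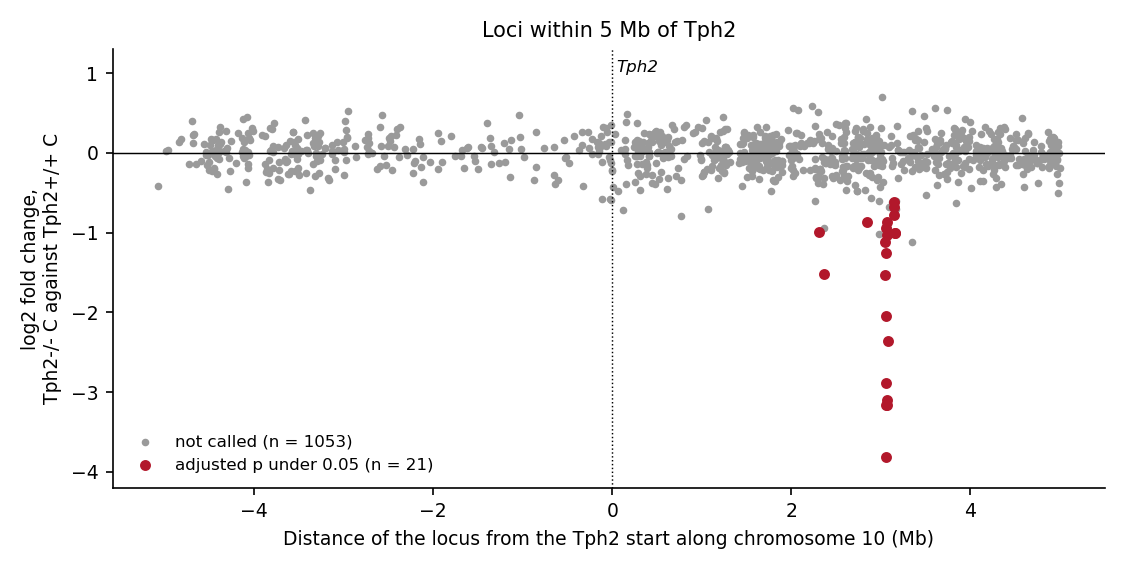
Each point is a locus within 5 Mb of Tph2, placed by its distance from the start of the gene along chromosome 10 (Mb) and by its log2 fold change in Tph2-/- C against Tph2+/+ C, with 0 as no difference. Red points passed an adjusted p under 0.05, and 18 of these 21 form a narrow column about 3 Mb from the gene, reaching -3.81, and 3 lie nearer to it at 2.30 to 2.85 Mb. Most of the other loci (gray) lie around 0 on both sides of Tph2.

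The low loci did not fill the interval between them and Tph2. Of the 331 loci that lay between the gene and the first of the 21, 157 were lower and 0 passed, with a median log2 fold change of 0.01. Among the 163 loci that lay inside the stretch spanned by the 21 without passing, the median was -0.06 and 91 were lower. Their log2 fold changes ran from -1.02 to 0.70. An unadjusted p under 0.01 in edgeR was found at 8 of these 163, beside 1213 of all 187695 loci (0.646%). In the 2.5 Mb past the last of the 21 the median over 434 loci was -0.01, and in the 2.5 Mb on the other side of Tph2 it was 0.05 over 89 loci. At the same limit in edgeR stood 6 of the 331 loci between Tph2 and the first of the 21. So did 4 of these 434 and 2 of these 89.

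Of the 21 loci, 18 sat in an inverted repeat and a tandem array of predicted genes between Il22, which encodes the cytokine interleukin 22, and Ifng, which encodes interferon gamma. In RefSeq these genes are pseudogenes. GENCODE lists 8 of 12 as protein-coding retrogenes, which are copies made from a messenger RNA, and 4 as processed pseudogenes. The main locus of each of 10 units had 9 copies in the cluster, at 95% identity or more over at least 50% of its length. Of these units 4 lie in the inverted repeat (Gm32717 and Gm9029 on the minus strand, mirrored by Gm9030 and Gm32802 on the plus strand) and 6 in the tandem array (Gm9040, Gm9044, Gm9045, Gm9046, Gm9048 and Gm9049, whose starts are 5406 to 5439 bp apart). The inverted repeat is taken here as the stretch from the Gm9585 loci to the Gm9035 loci. Mirrored sequence goes on past both ends of it. Within this stretch the arms are all but identical in the reference, with 99.9 to 100% identity for the 8 loci of the left arm. The sequence of the most CpG-rich window of the Gm32802 locus with the smallest p is shown beside the same window in other units. Where copies match over the length of a read, the read could be assigned to either locus. Capitals mark CpG dinucleotides, and all are written 5′ to 3′ along the strand of the gene.
Gm32802 (chr10:118258562-118258841, plus strand, 15 CpG): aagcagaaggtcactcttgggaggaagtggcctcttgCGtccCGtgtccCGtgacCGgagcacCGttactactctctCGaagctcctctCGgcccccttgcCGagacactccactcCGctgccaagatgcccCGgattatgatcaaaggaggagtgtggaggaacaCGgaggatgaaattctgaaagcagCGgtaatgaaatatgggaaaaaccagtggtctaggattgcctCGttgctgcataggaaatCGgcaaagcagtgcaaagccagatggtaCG
Gm9030 (chr10:118253146-118253412, plus strand, 12 CpG): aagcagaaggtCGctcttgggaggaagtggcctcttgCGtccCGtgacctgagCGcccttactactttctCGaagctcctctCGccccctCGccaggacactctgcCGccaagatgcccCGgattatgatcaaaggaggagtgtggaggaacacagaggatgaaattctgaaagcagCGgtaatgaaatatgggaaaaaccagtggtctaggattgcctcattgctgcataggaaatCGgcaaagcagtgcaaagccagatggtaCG
Gm9048 (chr10:118348526-118348792, minus strand, 15 CpG): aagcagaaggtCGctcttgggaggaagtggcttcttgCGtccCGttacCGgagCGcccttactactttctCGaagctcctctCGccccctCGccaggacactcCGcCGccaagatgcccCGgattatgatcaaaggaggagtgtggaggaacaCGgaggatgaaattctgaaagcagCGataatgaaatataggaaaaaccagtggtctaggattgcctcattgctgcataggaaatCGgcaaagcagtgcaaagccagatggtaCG
Gm32717 has the Gm32802 window at 100% identity on the minus strand (chr10:118240627-118240906), whereas Gm9030 matches it at 91.8%, Gm9048 at 91.4% and Gm9049 at 96.1%. How the authors' mapping placed reads that fit several copies is not given in the sources used here. Since 20 of the 21 loci had a copy at 95% identity or more, a value cannot be tied to a single copy. Mirrored loci may share reads, so they cannot be taken as separate observations. In bulk tissue a change in the share of cells and a change within cells cannot be told apart either.

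The lowest values belonged to Gm32717 and Gm32802, the mirrored units of the inverted repeat, which held 7 of the 21 loci. At the Gm32802 locus chr10:118258290-118259228, which contains the printed window, Tph2-/- C libraries ranged from 0.169 to 0.951 CPM with a median of 0.329, and Tph2+/+ C libraries from 1.76 to 5.76 with a median of 4.18. The highest Tph2-/- C library lay under the lowest Tph2+/+ C library, and the level fitted by edgeR was 8.97-fold lower (log2 fold change -3.17 ± 0.27 SE, adjusted p 9.66e-15). Its counterpart in Gm32717, chr10:118240183-118241196, held 0 to 1.15 CPM (median 0.392) in Tph2-/- C and 3.08 to 6.65 CPM (median 4.97) in Tph2+/+ C, again without overlap, and its log2 fold change was -3.16 ± 0.26 with an adjusted p of 1.29e-13. The next pair of mirrored loci fell less. Gm32802 chr10:118259603-118260692 had a log2 fold change of -2.36 ± 0.21 with an adjusted p of 1.06e-14, with 0.549 to 1.35 CPM against 3.01 to 7.61 CPM. Gm32717 chr10:118238775-118239834 had a log2 fold change of -2.04 ± 0.20 with an adjusted p of 5.32e-13, with 0.590 to 1.81 CPM against 2.94 to 6.34 CPM.

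The other 3 loci of these units held few counts. At chr10:118241257-118241919, 456 bp upstream of Gm32717, the 8 Tph2-/- C libraries summed to 10 counts, 8 of them in replicate 2, and the Tph2+/+ C libraries had a median of 1.78 CPM each. Its log2 fold change of -3.81 ± 0.52 with an adjusted p of 1.46e-05 was the lowest of all and is also the least precise. Upstream of Gm32802, chr10:118257496-118258288 summed to 17 counts in Tph2-/- C, with a median of 1.59 CPM in Tph2+/+ C (log2 fold change -3.10 ± 0.43 SE, adjusted p 3.26e-06). In the exon of Gm32717 at chr10:118238090-118238667 the sums were 15 and 120 counts (log2 fold change -2.89 ± 0.45 SE, adjusted p 7.84e-05). At these 3 loci the highest Tph2-/- C library reached above the lowest Tph2+/+ C library.

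Gm9029 and Gm9030, the inner units of the inverted repeat, fell by about 1 on the log2 scale. At the Gm9030 locus chr10:118252150-118253773 Tph2-/- C libraries held 1.57 to 3.42 CPM (median 3.00) and Tph2+/+ C libraries 4.99 to 7.15 CPM (median 5.84). The groups did not overlap, and the log2 fold change was -1.03 ± 0.15 with an adjusted p of 1.42e-05. The other loci of these units had log2 fold changes of -1.26 ± 0.19 SE (Gm9029, chr10:118244249-118245233, adjusted p 1.30e-05), -0.94 ± 0.17 SE (Gm9029, chr10:118245326-118246727, adjusted p 0.00323) and -0.87 ± 0.15 SE (Gm9030, chr10:118254258-118256026, adjusted p 0.00119). Outside them on the left arm lies Gm9585, a pseudogene. Its promoter locus chr10:118232979-118233539 had a log2 fold change of -1.53 ± 0.28 with an adjusted p of 0.00284, with 0.549 to 1.01 CPM against 1.03 to 3.29 CPM, and a locus at chr10:118226899-118227884, 3947 bp from the gene, one of -1.12 (± 0.21 SE, adjusted p 0.00598). The mirror image of Gm9585 on the right arm is Gm9035, whose loci had the same direction (log2 fold changes of -0.96 and -0.68, SE 0.28 and 0.20) and did not pass (adjusted p of 1.0 for each). All 15 loci of the inverted repeat as delimited here, passing or not, were lower in Tph2-/- C mice. The borders were set after the calls were seen, so this count is a description only. Mirrored sequence goes on past them. The locus at chr10:118278295-118279548, near Iltifb, has a mirrored match at 99.9% identity, and its log2 fold change was 0.08 (± 0.17 SE).

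In the tandem array the drop was smaller and the counts higher. At the Gm9048 locus chr10:118346710-118349742 Tph2-/- C libraries held 4.55 to 7.18 CPM (median 6.00) and Tph2+/+ C libraries 10.1 to 14.4 CPM (median 11.3), a 2.00-fold lower level without overlap (log2 fold change -0.999 ± 0.12 SE, adjusted p 4.46e-08). The Gm9046 locus chr10:118340784-118344240 held 5.10 to 10.2 CPM against 10.5 to 15.4 CPM, also without overlap (log2 fold change -0.999 ± 0.12 SE, adjusted p 4.64e-08). Gm9044 (chr10:118330355-118332914) had a log2 fold change of -0.78 ± 0.13 with an adjusted p of 0.000378. Gm9045 (chr10:118335783-118338391) and Gm9040 (chr10:118324945-118328074) had log2 fold changes of -0.68 (± 0.13 SE, adjusted p 0.0177) and -0.61 (± 0.13 SE, adjusted p 0.0379), and at both the groups overlapped. The main Gm9049 locus lay just outside the limit, at a log2 fold change of -0.61 ± 0.13 and an adjusted p of 0.118. Median log2 fold changes were -2.04 over the 13 loci of the inverted repeat and -0.78 over the 5 of the array, and this difference was not tested.

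**Figure D2:**
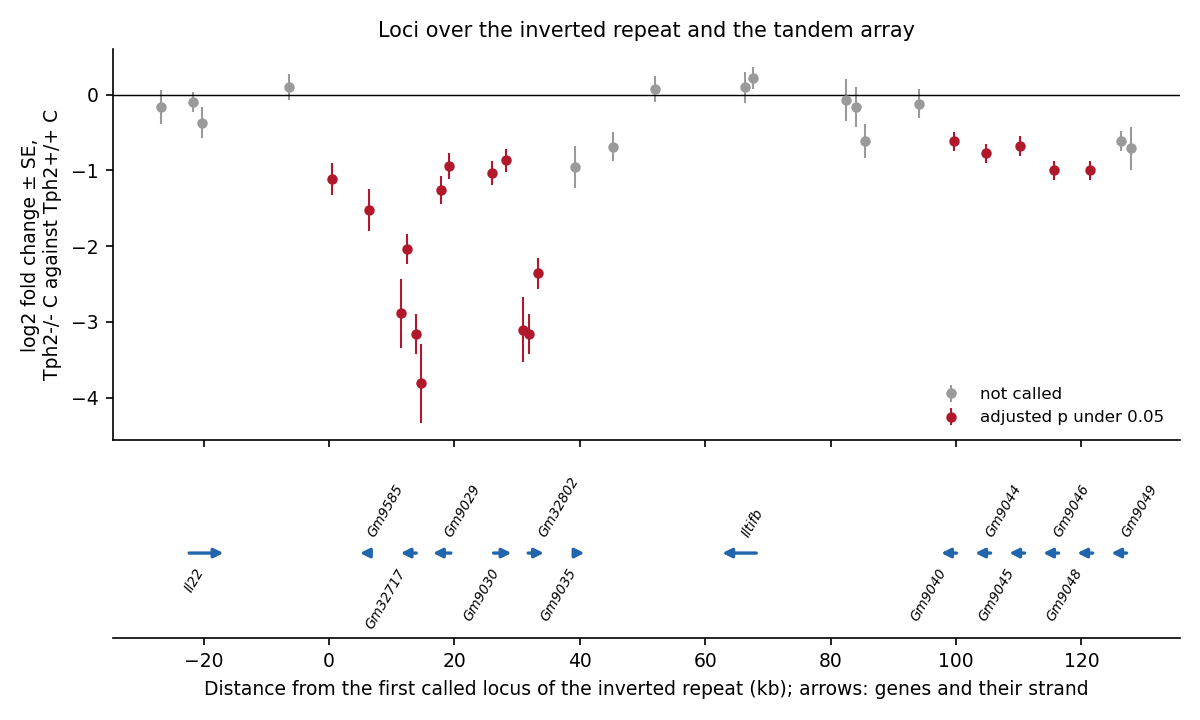
Log2 fold change with SE (upper panel) of each locus over the inverted repeat and the tandem array against the distance in kb from the first called locus of the inverted repeat, above the genes with their strand (lower panel). Loci with an adjusted p under 0.05 (red) reach -2.04 to -3.81 at Gm32717 and Gm32802 and lie between -0.61 and -0.999 in the array, while loci at Il22 and Iltifb (gray) lie near 0.

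The genes Il22, Iltifb and Ifng beside these units did not pass. Il22 and Iltifb, a close copy of Il22, lie on either side of the stretch delimited as the inverted repeat and were named after their values were seen. These genes are mirrored too, since loci at Iltifb match Il22 on the other strand at 95.8 and 97.7% identity. Summed over its loci, Il22 held 7.66 ± 0.975 CPM in Tph2-/- C and 8.72 ± 1.08 CPM in Tph2+/+ C (SD, n = 8 each, log2 fold change -0.18 ± 0.11 SE, adjusted p 1.0), and Iltifb had a log2 fold change of 0.18 ± 0.12 with an adjusted p of 1.0. Ifng had a log2 fold change of -0.21 ± 0.18 with an adjusted p of 1.0. Also lower in this region, without passing, was a locus over a coding exon of Mdm1 at chr10:118163161-118165097 (log2 fold change -0.61 ± 0.14 SE, adjusted p 0.425). Another lay in an intron of Ifngas1, a long non-coding RNA gene on the strand opposite to Ifng, at chr10:118535058-118535754 (log2 fold change -1.12 ± 0.27 SE, adjusted p 0.436). The locus just before that of Mdm1 had a log2 fold change of -1.02, and 1 near Gm32235, at 2.37 Mb from Tph2, had -0.94. Neither passed. All 4 were likewise named after their values were seen.

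The remaining 3 of the 21 loci lay before the inverted repeat, at 2.30 to 2.85 Mb from Tph2. The locus at chr10:117554938-117555914 lies between genes, 3219 bp from the long non-coding RNA gene Gm32235, and is the only 1 of the 21 with no copy elsewhere in the reference at the identity used. It held 0.510 to 1.62 CPM (median 1.12) in Tph2-/- C and 2.11 to 4.07 CPM (median 3.16) in Tph2+/+ C, without overlap, and was 2.86-fold lower (log2 fold change -1.52 ± 0.22 SE, adjusted p 1.30e-05). Its most CpG-rich window is shown because it has no such copy to share reads with.
near Gm32235 (chr10:117555479-117555778, plus strand, 10 CpG): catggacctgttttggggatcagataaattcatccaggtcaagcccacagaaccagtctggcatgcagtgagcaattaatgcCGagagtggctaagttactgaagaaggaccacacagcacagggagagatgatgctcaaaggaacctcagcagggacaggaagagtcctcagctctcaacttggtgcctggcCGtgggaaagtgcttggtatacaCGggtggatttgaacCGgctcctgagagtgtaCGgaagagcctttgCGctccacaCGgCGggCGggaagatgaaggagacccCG
The other 2 are made mostly of repeats. The locus at chr10:118030298-118033370 in an intron of the long non-coding RNA gene Gm32663 is 97.4% repeat, and held 6.97 to 11.3 CPM in Tph2-/- C and 12.8 to 18.3 CPM in Tph2+/+ C (log2 fold change -0.87 ± 0.12 SE, adjusted p 9.75e-07). The locus at chr10:117489588-117491151 is 83.5% repeat, with 67 copies in the reference, and held 2.35 to 3.95 CPM against 5.73 to 8.19 CPM (log2 fold change -0.99 ± 0.14 SE, adjusted p 1.16e-05). At both the groups did not overlap.

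Summing the counts of all loci over a gene body and the 2 kb upstream gave values for 29009 genes, of which 11 passed an adjusted p under 0.05 (0.0379%), all of them lower in Tph2-/- C mice and all of them in the inverted repeat or the array. The lowest were Gm32802, with 1.62 ± 0.523 CPM in Tph2-/- C and 10.8 ± 2.62 CPM in Tph2+/+ C (SD, n = 8 each, log2 fold change -2.75 ± 0.17 SE, adjusted p 2.59e-15), and Gm32717 (log2 fold change -2.67 ± 0.16 SE, adjusted p 3.16e-17). Gm9585 followed at -1.53 (± 0.27 SE, adjusted p 0.000977), Gm9029 at -1.08, Gm9048 at -0.998 and Gm9046 at -0.999, Gm9030 at -0.95, Gm9044 at -0.78, Gm9045 at -0.68, Gm9049 at -0.62 and Gm9040 at -0.61, with adjusted p-values of 0.00834 or less. Of the 140 genes with a locus within 5 Mb of Tph2 those that did not pass had a median of 0.02, and 0 of the 47 that RefSeq lists as protein-coding passed. At an unadjusted p under 0.05, 1058 genes were counted (3.65%). Sums of the genes that passed reuse the counts of the loci described above, so they are not a separate test. For Gm9585, Gm9040, Gm9044, Gm9045, Gm9046 and Gm9048 the sum held 1 locus, which had itself passed. The sum for Gm9049 held 2 loci, and neither passed alone.

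In the inverted repeat, libraries of the heterozygous genotype lay between most of the others. Summed over the 13 loci of the inverted repeat, Tph2+/+ C libraries ranged from 35.5 to 55.4 CPM (median 52.6), Tph2+/- C libraries from 30.6 to 35.7 CPM (median 33.7) and Tph2-/- C libraries from 14.2 to 20.3 CPM (median 16.3). All 8 Tph2-/- C libraries lay under the Tph2+/- C range, and 7 of 8 Tph2+/+ C libraries lay above it, while Tph2+/+ C replicate 2, at 35.5 CPM, lay inside it. The Tph2+/- C mean was 66.9% and the Tph2-/- C mean 32.7% of the Tph2+/+ C mean, which was 49.99 CPM with replicate 2 and 52.1 CPM without it. In the tandem array the genotypes were less apart. Over its 5 loci the corresponding shares were 82.9% and 56.4% of a Tph2+/+ C mean of 54.8 CPM, or 56.2 CPM without replicate 2. Of the Tph2+/+ C libraries 5 of 8 lay inside the Tph2+/- C range of 36.6 to 57.96 CPM, as did 1 Tph2-/- C library. The upper end of this range is Tph2+/- C replicate 7 alone, and the next library, Tph2+/- C replicate 5, held 50.1 CPM. Without replicate 2 the Tph2+/+ C libraries held 50.6 CPM or more. Over the 3 outlying loci no Tph2+/+ C or Tph2-/- C library lay inside the Tph2+/- C range, and the shares were 76.8% and 51.1% of a mean of 25.2 CPM, or 25.5 CPM without replicate 2. These sums describe loci that were found by their difference between Tph2-/- C and Tph2+/+ C and are no test.

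In a fit of all 24 C libraries, Tph2-/- C was lower than Tph2+/- C at an adjusted p under 0.05 at 6 loci (0.0032%), all of them among the 7 loci of Gm32717 and Gm32802, with the smallest adjusted p of 1.54e-08 at chr10:118258290-118259228 (log2 fold change -2.34 ± 0.28). The lowest log2 fold change of the 6 was -3.09, at the Gm32717 locus at 118241257 with few counts (adjusted p of 0.0274). Each of the 21 had fewer counts in Tph2-/- C than in Tph2+/- C, with a median log2 fold change of -0.68. Tph2+/- C against Tph2+/+ C gave 0 loci at the adjusted limit in edgeR, beside 7246 loci at an unadjusted p under 0.05. All 21 loci were lower in Tph2+/- C, their median log2 fold change was -0.48, and an unadjusted p under 0.05 was found at 15 where 1.91% of all loci did so in this direction. The smallest adjusted p was 0.0687, at the Gm32802 locus chr10:118259603-118260692 (log2 fold change -1.004). Without Tph2+/+ C replicate 2, 5 loci passed against Tph2+/- C and 1 passed in Tph2+/- C against Tph2+/+ C, where 16 of the 21 had an unadjusted p under 0.05 in edgeR. These contrasts share libraries with the comparison that chose the 21 loci.

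**Figure D3:**
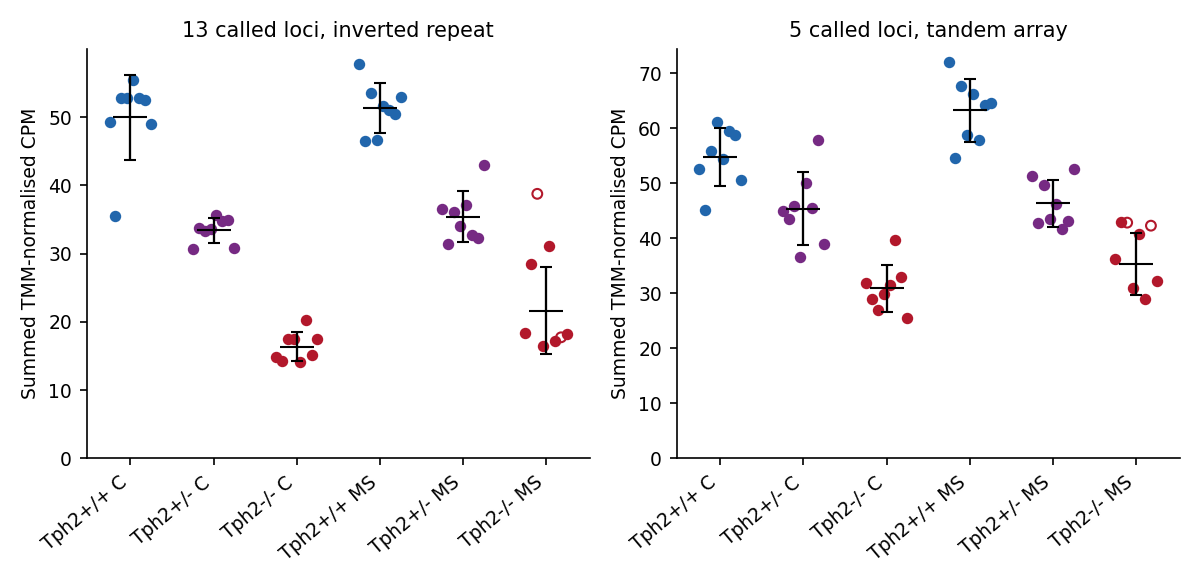
Summed CPM per library over the 13 called loci of the inverted repeat (left) and the 5 of the tandem array (right) in the 6 groups, with the mean and SD of each group (bars) and with the 2 Tph2-/- MS libraries left out of the tests as open circles. In the inverted repeat the Tph2-/- C libraries sit at 14.2 to 20.3 CPM, the Tph2+/- C libraries at 30.6 to 35.7 CPM and the Tph2+/+ C libraries at 48.95 CPM or more, except for replicate 2 at 35.5 CPM.

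Without Tph2+/+ C replicate 2 the same 21 loci passed, and their median log2 fold change was -1.16. Within S1 to S17 all 21 loci were lower, with a median of -1.28, and 17 of them passed. Within S42 to S48, with 3 against 2 libraries, all 21 were again lower, with a median of -1.08, and 6 passed.

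Mice that had been separated gave a comparison of the same genotypes in other animals. Here Tph2-/- MS replicates 3 and 7, which had the lowest totals of their group, were left out, since the study excluded 2 libraries of low counts from this group and the labels do not name them. In the 6 remaining Tph2-/- MS libraries against 8 Tph2+/+ MS libraries all 21 loci were lower, at -2.15 to -0.59 (median -0.93) on the log2 scale, and all 21 had an unadjusted p under 0.05 in edgeR, where 1.73% of all loci did so in this direction. At an adjusted p under 0.05 there were 6 loci (0.0032%), and 5 of them were among the 21, namely Gm32717 at 118238775 (log2 fold change -1.67 ± 0.20 SE, adjusted p 0.000193) and 118240183 (-2.15 ± 0.27 SE, adjusted p 0.000274), the Gm32802 locus at 118259603 (-1.73, adjusted p of 0.0115), the Gm9029 locus at 118244249 (-1.15, adjusted p of 0.0284) and the Gm9046 locus at 118340784 (-0.98, adjusted p of 0.0347). The sixth, chr10:115072171-115073639, lies 5002 bp past the end of Tph2. It had a log2 fold change of -1.50 in MS (adjusted p of 0.0284) and of -0.58 in C (± 0.18 SE, adjusted p 1.0).

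Among the Tph2-/- MS libraries the sums over the inverted repeat were uneven. Replicates 1, 4, 6 and 8 held 16.4 to 18.3 CPM, whereas replicates 2 and 5 held 28.5 and 31.1 CPM, and of those left out replicate 7 held 17.7 and replicate 3 held 38.7 CPM. Tph2+/+ MS libraries held 46.5 to 57.8 CPM. Without replicates 2 and 5, which were chosen for these values, 10 loci passed, 9 of them among the 21, and the median over the 21 moved to -1.16. With all 8 Tph2-/- MS libraries 4 loci passed, 3 of them among the 21. The groups did not overlap at 9 of the 21 loci in MS, where 0.0304% of all loci had every Tph2-/- MS library below.

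**Figure D4:**
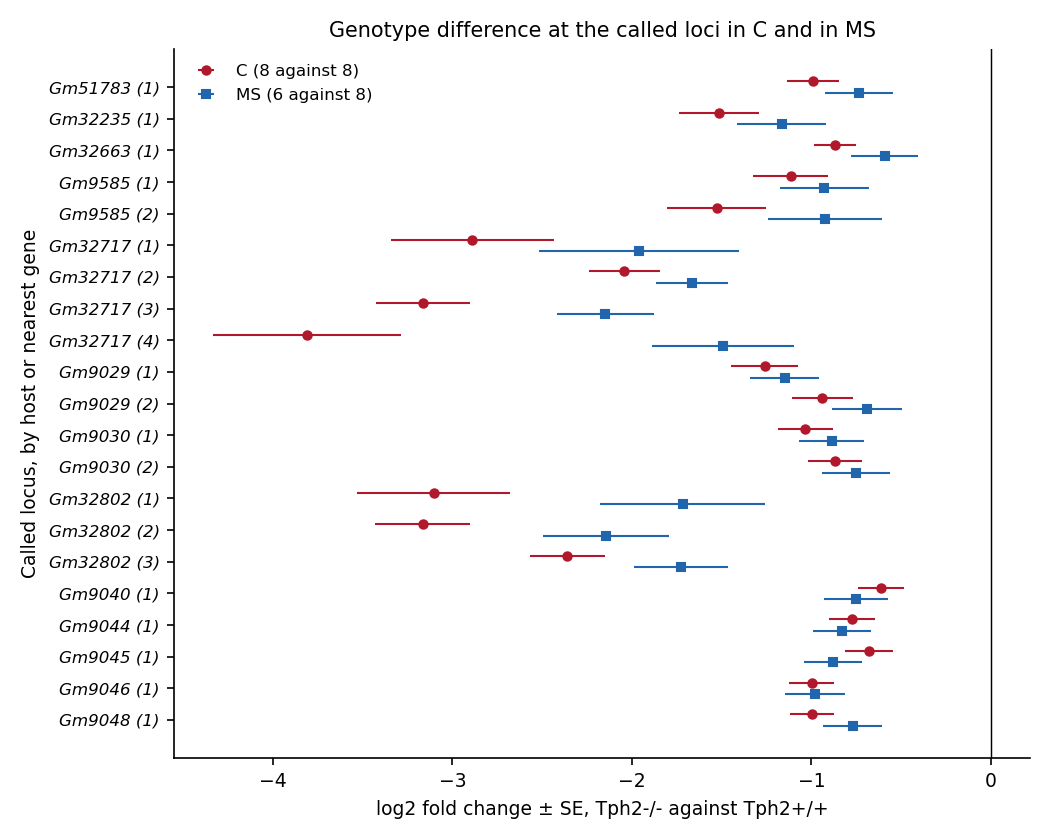
Log2 fold change with SE of Tph2-/- against Tph2+/+ at each of the 21 loci, labelled by host or nearest gene in the order of the chromosome, in C (red circles) and in MS (blue squares). Every point lies under 0, the Gm32717 and Gm32802 loci reach -3.81 in C and -2.15 in MS, and the array loci lie between -0.61 and -0.999 in both.

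The MS libraries carry sample numbers S18 to S41, and every C library has a number before or after these. Condition and sample number therefore cannot be told apart. The difference between the genotype effects in MS and in C was tested as an interaction. It gave 0 loci at an adjusted p under 0.05 in edgeR and 0 in DESeq2, beside 6014 loci at an unadjusted p under 0.05 in edgeR (3.2%). Of the 21 loci 18 had a smaller loss in MS, with a median interaction of 0.27, and 2 had an unadjusted p under 0.05, both at Gm32717 (2.31 with a p of 0.00267 at 118241257, and 1.023 with a p of 0.0293 at 118240183). Without Tph2-/- MS replicates 2 and 5 and Tph2+/+ C replicate 2 the median was 0.06 and 12 of the 21 had a smaller loss. The 21 loci were chosen for their loss in C, which by itself favors a smaller loss in other libraries, so these counts are a description only.

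Away from chromosome 10 no locus passed the adjusted limit in C. The higher loci with the smallest p were near Gm20786 on chromosome 8 (log2 fold change 0.76 ± 0.19 SE, adjusted p 0.579), near LOC115490339 on chromosome 6 (0.59, adjusted p of 0.582), over a coding exon of Slc9a2, which encodes a sodium and proton exchanger, on chromosome 1 (0.62, adjusted p of 0.622), in an intron of Camk1d, which encodes a calcium and calmodulin-dependent kinase, on chromosome 2 (0.48, adjusted p of 0.856) and over a coding exon of Suclg1, which encodes a subunit of succinyl-CoA ligase, on chromosome 6 (0.68, adjusted p of 1.0). The lower loci were near Gm52641 on chromosome 3 (-0.89 ± 0.21 SE, adjusted p 0.359), in an intron of the potassium channel gene Kcnk2 on chromosome 1 (-0.83, adjusted p of 0.425), near Vmn1r-ps152 on chromosome 18 (-0.55, adjusted p of 0.425), near the calcium channel subunit gene Cacna2d2 on chromosome 9 (-0.93, adjusted p of 0.483) and near Gm6551 on chromosome 16 (-0.87, adjusted p of 0.602). In MS the log2 fold changes of these 10 loci ran from -0.26 to 0.50, and 5 of them had the opposite sign.

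Genes of the serotonin system and of the amygdala were examined as 12 lists. They named 155 genes, of which 116 had a locus, and 0 of these passed an adjusted p under 0.05 in the gene sums, beside 6 (5.17%) at an unadjusted p under 0.05, 3 higher and 3 lower, where 3.65% of all genes did so. Medians of the lists ran from -0.03 to 0.08, against 0.01 over all genes.

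Of 15 genes for serotonin synthesis, transport, breakdown and neuron identity 10 had a locus, 5 higher and 5 lower. Gata2, a transcription factor of serotonergic neurons, had the smallest p, with 1.23 ± 0.479 CPM in Tph2-/- C and 2.05 ± 0.586 CPM in Tph2+/+ C (SD, n = 8 each, log2 fold change -0.74 ± 0.25 SE, adjusted p 1.0). The serotonin transporter Slc6a4 had a log2 fold change of 0.04 (SE 0.06), the vesicular transporter Slc18a2 of -0.09 (SE 0.09), the decarboxylase Ddc of -0.07 (SE 0.06), Tph1, the enzyme of peripheral serotonin synthesis, of 0.09 (SE 0.07) and the transcription factor Lmx1b of 0.07 (SE 0.05). Of the 10 genes only Gata2 had an unadjusted p under 0.05 in edgeR.

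Of 14 serotonin receptor genes 12 had a locus, 7 higher and 5 lower, with a median of 0.08. Htr5a had a log2 fold change of 0.41 ± 0.20 with an adjusted p of 1.0 and Htr7 of 0.17 (SE 0.10). Htr2a, which encodes an excitatory receptor of cortical and amygdala neurons, had a log2 fold change of -0.01 (SE 0.08) and Htr2c of 0.26 (SE 0.16), and Htr1a held no locus among those with values here.

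The other lists gave values of the same size. Among stress and social peptide genes Fkbp5, a co-chaperone of the glucocorticoid receptor, had a log2 fold change of -0.14 (SE 0.06) and the oxytocin receptor Oxtr of 0.13 (SE 0.08). Among amygdala neuron genes the neuropeptide Cck had a log2 fold change of -0.33 (SE 0.14) and Gad1, an enzyme of GABA synthesis, of 0.16 (SE 0.14). Slc6a2 and Th of the other monoamine systems had values of -0.12 and 0.13, Nr4a2 and Ntrk2 of the activity and Bdnf list 0.25 and 0.06, and Mbd1 and Dnmt3l of the methylation machinery 0.09 and 0.15. Among cell type markers the 2 genes of smallest p in each list had values of 0.21 and 0.28 for Syt1 and Slc17a6 of neurons, 0.12 and 0.09 for Cldn11 and Mobp of oligodendrocytes, 0.10 and 0.13 for Slc1a3 and Gja1 of astrocytes, -0.16 and 0.09 for Tmem119 and Cx3cr1 of microglia and 0.10 and 0.04 for Pecam1 and Tek of vessels. These pairs do not stand for their lists. Of the neuron markers 3 were higher and 2 lower (median 0.06), with Rbfox3 at -0.02 and Map2 at -0.01. Of the oligodendrocyte markers 4 were higher and 4 lower (median -0.00), with Olig1 at -0.21. The split was 4 higher and 2 lower for astrocytes (median 0.08), 3 and 5 for microglia (median -0.03) and 5 and 1 for vessels (median 0.05). The adjusted p was 1.0 for each of these genes. The median SE of a gene sum was 0.13 and that of a locus 0.20, which sets the size of difference that could be seen at this depth.

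**Figure D5:**
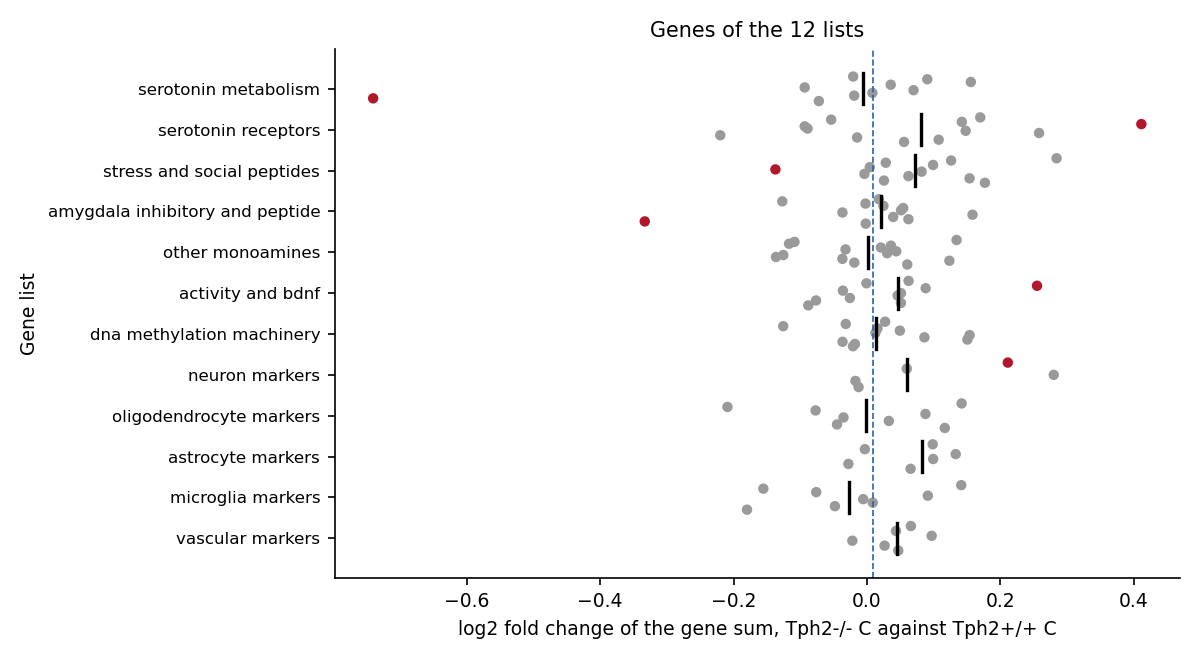
Log2 fold change of the gene sum in Tph2-/- C against Tph2+/+ C for each gene of the 12 lists (points, red where the unadjusted p is under 0.05), with the median of each list (black bar) and of all genes (blue dashed line at 0.01). List medians lie between -0.03 and 0.08, and the 6 red points lie on either side of 0.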

How the data were processed

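Methylated DNA of the amygdala was captured with a methyl-CpG-binding domain and sequenced as 50 bp paired ends. The authors mapped reads to GRCm38 with Bowtie2 2.1.0, merged the peaks of the libraries and counted reads per locus with DiffBind 2.0.9. They deposited raw counts, 1 column per library, and the handling of duplicate reads and of reads that map to several places is not given in the sources used here. In the 48 libraries 55.0 to 67.7% of counts were even.

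All 16 libraries of the main comparison entered edgeR's quasi-likelihood test (edgeR 4.0.16 in R 4.3.3, TMM normalisation, trended dispersion, robust fit) on 187695 loci without a filter, with Benjamini-Hochberg adjustment over all loci. Counts had a median of 28.9 per locus and library. CPM used TMM factors over all 48 libraries. Gene sums added the counts of loci over a gene and 2 kb upstream. DESeq2 1.42.0 and limma 3.58.1 gave alternatives. Single values were compared by exact two-sided permutation tests (12870 regroupings). Copies were sought in GRCm38 with minimap2 2.31, and genes and sequences came from RefSeq on GRCm38. The scripts were tested on simulated data.

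The loci named were those at Tph2, those with an adjusted p under 0.05, the 5 higher and 5 lower loci of smallest p outside chromosome 10, the genes that passed and 2 genes of smallest p per list. Further serotonin genes were named for their role. The comparison, the lists and this rule were chosen with earlier results of these data known. The inverted repeat and the array were delimited after the calls were seen. No replicate pair of the 56 within the 2 groups had identical counts, and chi-square per locus was 2.05 to 3.50. Replicate numbers did not pair the libraries, since deviations of same-numbered libraries correlated at -0.108 to 0.114.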

Additional observations from a re-analysis of the deposited data

Results flagged for a closer look

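Among 64 sets of libraries, each holding 1 value in 1 group, 5 had a library whose gap to the rest was large for the range of the group, and chance gives about 1 in 20 such sets. Tph2+/+ C replicate 2 held 35.5 CPM over the called loci of the inverted repeat, where the other Tph2+/+ C libraries held 48.95 to 55.4. The same library held 103.2 CPM over all 21 loci, where the others held 123 to 140. Tph2-/- C replicate 6 held 74.6 CPM over the 21 loci, where the others of its group held 54.6 to 63.3, and 10.2 CPM at the Gm9046 locus, where the others held 5.10 to 7.34. Tph2-/- C replicate 2 held 0.786 CPM at the Gm32717 locus at 118241257, where the others held 0 to 0.169. The causes were not tested.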

How the results depend on the processing

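The count of 21 loci was 17 with limma voom, 22 with DESeq2, 22 with scaling by totals, 18 after a filter on low counts, 18 within S1 to S17 (1 of them higher) and 9 within S42 to S48 (1 of them higher), and ran from 18 to 21 when each library was left out in turn. Each of the 21 loci that remained in a fit was lower under every alternative, and of 606 values of single loci 563 kept their side of the threshold and 43 did not pass. Loci at the limits of the study numbered 798 in a fit of 46 libraries, 2713 within S42 to S48 and 1086 to 1508 without 1 library. The difference in the sum over Tph2 was 1.27 CPM within S1 to S17 (exact permutation p of 0.303), the other direction from all 16 libraries. In MS DESeq2 gave 11 loci, the fit without Tph2-/- MS replicates 2 and 5 gave 10, and leaving out 1 library gave 2 to 7, with 3 or fewer without Tph2+/+ MS replicates 2, 3, 5, 7 or 8 or Tph2-/- MS replicates 1, 4 or 6. Tph2+/- C against Tph2+/+ C gave 1 locus without Tph2+/+ C replicate 2. The causes were not tested. The fits without MS libraries and without Tph2+/+ C replicate 2 in the 24-library contrasts were chosen after seeing the data.

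With the replicate number as a block 21 loci passed in C, 1198 stood at the limits of the study, 5 passed in MS and 11 genes passed, so no count moved by over 1.5 times. Of 8 pairs, 3 correlated best within their own number, which does not show a pairing.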
